A study of Homo sapiens with 6 samples.

Results

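Mitochondrial ribosomal protein genes were described in SKOV3 cells, a long-established line of human ovarian cancer, with and without an shRNA against CPT1A, which forms acylcarnitines from long-chain fatty acids at the mitochondrial surface so that they can be imported. The members were every gene of the deposited table whose symbol is MRPL or MRPS followed by digits and at most 1 letter. There were 78 such genes among 57905, with 48 MRPL and 30 MRPS entries and 76 different symbols, because MRPL30 and MRPS17 were each listed under 2 gene identifiers. A further 67 symbols that continue into a pseudogene or antisense suffix were not members, and 48 of those 67 had no count in any library.

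RNA was sequenced from 3 control libraries, of cells labelled WT in normal culture, and from 3 libraries of cells labelled CPT1Ash, also in normal culture. The controls carry no hairpin according to their labels, so lowering CPT1A and carrying a hairpin cannot be told apart. Replicates are labelled as biological, without a statement of whether the hairpin was introduced separately for each one, so the p-values measure the spread between these libraries. The libraries held 15740143 to 22271565 counts. CPT1A itself was at 6.70, 8.06 and 8.0 FPKM with no hairpin and at 2.16, 2.00 and 1.96 FPKM with it (log2 change -1.97, edgeR adjusted p = 3.30e-06). Among markers of the labelled cell type, the epithelial keratins KRT8 and KRT18 lay at 193 to 565 FPKM, PAX8 at 55.2 to 92.9 FPKM and ERBB2 at 152 to 266 FPKM. The 8 epithelial and ovarian markers were EPCAM, KRT7, KRT8, KRT18, KRT19, CDH1, ERBB2 and PAX8. Of these 4 were called lower in the shRNA libraries (KRT7, KRT8, KRT19 and PAX8), or 50%, against 13.7% of all tested genes. None was called higher, and the part of these markers in the results was not tested. None of the 13 matched markers of fibroblasts, endothelium and immune cells exceeded 1 FPKM in any library.

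The mitochondrial ribosome is a separate ribosome inside the organelle that translates the few messages of the mitochondrial genome, which encode core subunits of the respiratory chain. Its RNAs are made from mitochondrial DNA, whereas all of its proteins are encoded in the nucleus, made in the cytosol and imported. Some of these proteins belong to families shared with bacterial ribosomes and others have no bacterial counterpart, and inherited defects in several of them impair oxidative phosphorylation.

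Mitoribosomal protein genes were expressed in the SKOV3 libraries with few exceptions, and their levels moved little between the groups. Of the 78 genes 75 passed the expression minimum, which was 1 FPKM (counts scaled to exonic length and to the library's total) in at least 3 of the 6 libraries. Of these 75 genes 9 were called lower in the shRNA libraries and none higher, by edgeR's quasi-likelihood test (Benjamini-Hochberg adjustment over 12784 genes, threshold 0.05). Over all tested genes 13.7% were called lower and 13.8% higher, so that the 12% of members called lower lay near the background share. Without adjustment, 14 members were lower and 4 higher at p under 0.05, against 20.2% and 19.8% of all tested genes. DESeq2 called 9 members lower and 1 higher, against backgrounds of 14.4% and 15.2%. Limma on log2(FPKM + 1) called 5 lower and 3 higher, against backgrounds of 10.5% and 16.1%.

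The sizes of change were small. The median log2 change of the 75 tested members was -0.12, against -0.01 for all tested genes, and the lower and upper quartiles of the members were -0.24 and 0.06. A fitted change of more than 1.5-fold was reached by 1 member (MRPL20), or 1.33% of them, whereas 20.9% of all tested genes changed by more than that. In simulated counts edgeR recovered 34% of genes changed 1.5-fold, so a member without a call may still have changed by a small amount. The members were also more abundant than the typical gene, with a median over genes of 26.2 FPKM against 6.43 FPKM, and the part of abundance in this difference was not tested. In bulk libraries, less RNA per cell and fewer cells that express a gene cannot be told apart.

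**Figure D1:**
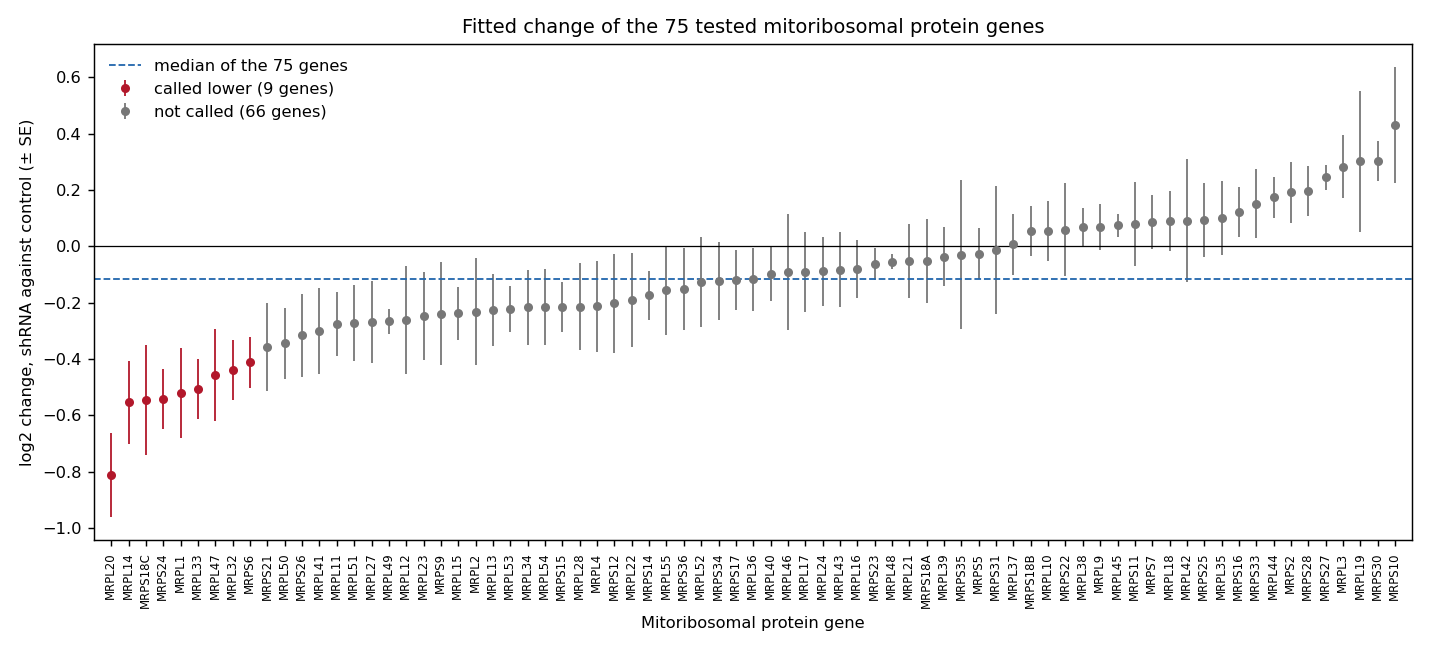
Fitted log2 change (y axis, shRNA against control, with its standard error) of each of the 75 tested mitoribosomal protein genes, ordered along the x axis. The 9 genes called lower are at the left, from MRPL20 at -0.81 to MRPS6 at -0.41, and the median of the 75 genes is at -0.12.

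Summed over the 78 members, the counts made up 0.553%, 0.490% and 0.532% of all counts in control replicates 1, 2 and 3, and 0.495%, 0.519% and 0.545% in the shRNA libraries, so that the groups overlapped. Control replicate 2 was the low control library. Of the 75 tested members 50 had their lowest control value (log2 CPM) in replicate 2, or 66.7%, against 40.1% of all tested genes. The median over members of log2 CPM relative to the mean of the controls was 0.10, -0.16 and 0.04 in the control libraries and -0.22, -0.11 and -0.02 in the shRNA libraries. Without control replicate 2, 25 members were called lower and 2 higher, against backgrounds of 19.6% and 19.9%, and the 25 included all 9 of the genes named below. Without control replicate 1 a single call, that of MRPL20, was left (background 7.15%), and without shRNA replicate 2 only those of MRPL20 and MRPL14 (background 7.69%). The lower calls numbered 4 without shRNA replicate 1 (background 10.8%) and 5 without shRNA replicate 3 (background 10.1%). Without control replicate 3 they numbered 8 (background 13.3%), of which 7 were among the 9.

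**Figure D2:**
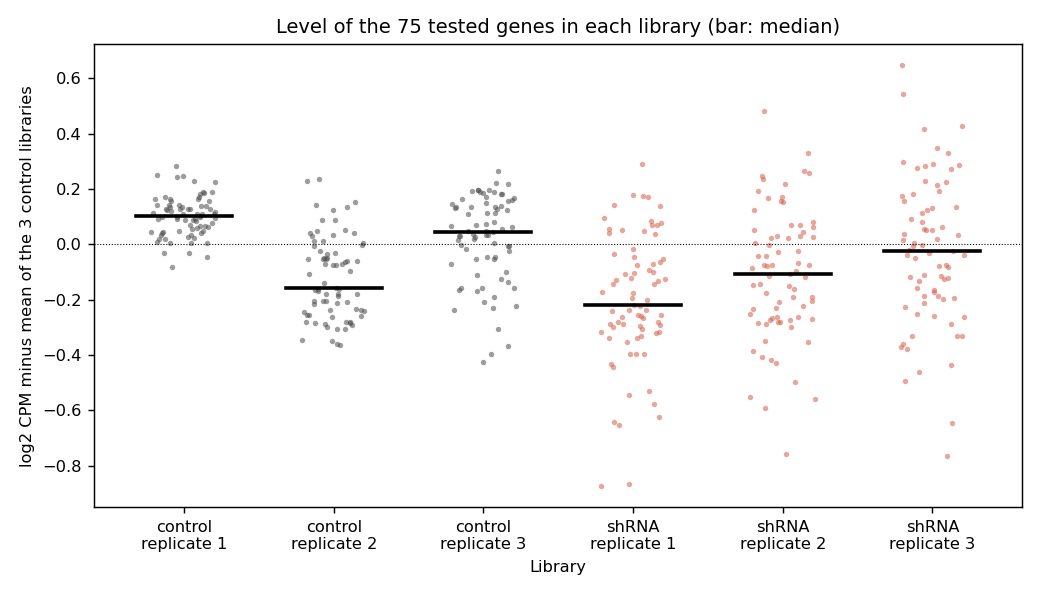
Level of the 75 tested genes in each library (y axis, log2 CPM minus the mean of the 3 control libraries; points are genes and bars are medians). Control replicate 2, with a median of -0.16, lies within the range of the shRNA libraries, whose medians run from -0.22 to -0.02.

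Gene length moved with these results. The tested members had a median exonic length of 2404 bases, against 4235 bases for all tested genes, while their median transcript GC content was close to that of all tested genes (50.6% and 50.2%). Across all 12784 tested genes the log2 change rose with length (Spearman's rho 0.25), and across the 75 members rho was also 0.25; genes are not independent replicates and all share the same 6 libraries. Within libraries, the rho of a gene's deviation from its mean with length was -0.32 in replicate 1 of the controls, -0.31 in replicate 3 and 0.07 in replicate 2. With the hairpin it was 0.17 to 0.23. With a smooth trend on length removed from each library, the members' median log2 change was 0.02, with 5 members called lower and 4 higher against backgrounds of 13.5% and 13.4%. With trends on both length and GC content removed, an alternative chosen after seeing the data, 7 members were lower and 6 higher, against backgrounds of 19.8% and 19.1%.

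The largest decrease was in MRPL20, a large-subunit protein whose bacterial counterpart binds early during assembly of the subunit in Escherichia coli. MRPL20 (ENSG00000242485, chromosome 1, 1337288 to 1342693, minus strand, in the authors' table, for which the sources used here give no human build) was at 33.74, 26.12 and 33.79 FPKM in the control libraries and at 17.82, 19.28 and 19.05 FPKM in the shRNA libraries. Every shRNA library lay below every control library. The fitted decrease was 1.76-fold, with a log2 change of -0.81 ± 0.15 (SE) and an edgeR adjusted p = 0.00105. MRPL20 overlaps the untested RN7SL657P on its own strand and, over 139 bases on the other strand, RP4-758J18.2, which was not called (log2 change -0.24). Its call held under each of the 17 alternatives, with log2 changes from -0.94 to -0.69.

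MRPL14, of the large subunit's face towards the small subunit, is the docking point of the assembly factor MALSU1. It was at 91.06, 71.77 and 93.05 FPKM in control and at 59.93, 59.15 and 64.38 FPKM in shRNA libraries. The groups did not overlap, although control replicate 2 was much nearer to the shRNA libraries than the other controls were. The log2 change of MRPL14 (ENSG00000180992, chromosome 6, 44081194 to 44095194, minus strand) was -0.55 ± 0.15 (SE), or 1.47-fold lower, with an edgeR adjusted p = 0.00958. MALSU1 was not called, at 8.29, 6.91 and 7.73 FPKM in control and 7.87, 8.68 and 8.67 FPKM in shRNA libraries.

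MRPL33, a small protein of a family also found in bacteria, was at 39.33, 34.83 and 35.28 FPKM in control and at 24.41, 27.12 and 29.43 FPKM in shRNA libraries. All of its shRNA values lay below all of its control values (log2 change -0.51 ± 0.11 SE, 1.42-fold lower, edgeR adjusted p = 0.0124). MRPL33 (ENSG00000243147, chromosome 2, 27994584 to 28210954, plus strand) overlaps BRE on its own strand, which was also called lower (log2 change -0.36), and RBKS on the other strand, which was not called (log2 change 0.56). MRPL32 was at 8.96, 8.63 and 8.86 FPKM in control and at 5.95, 7.26 and 7.32 FPKM in shRNA libraries. Its controls lay close together and above all shRNA libraries (log2 change -0.44 ± 0.11 SE, 1.35-fold lower, edgeR adjusted p = 0.0373). In yeast and mouse, MRPL32 is cut to its mature form by the m-AAA protease of the inner membrane, whose subunits AFG3L2 and SPG7 were not called (log2 changes 0.10 and -0.02). MRPL32 (ENSG00000106591, chromosome 7, 42971799 to 42988557, plus strand) overlaps the first 24 bases of PSMA2, a proteasome subunit gene on the other strand that was also called lower (log2 change -0.71).

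MRPL47 belongs to a bacterial family whose member sits beside the exit of the peptide tunnel. It was at 35.32, 30.51 and 25.41 FPKM in control and at 20.58, 24.81 and 24.54 FPKM in shRNA libraries. The lowest control library was only slightly above the highest shRNA library (log2 change -0.46 ± 0.16 SE, 1.37-fold lower, edgeR adjusted p = 0.0421). MRPL47 (ENSG00000136522, chromosome 3, 179306073 to 179322442, minus strand) starts 36 bases from NDUFB5, a complex I subunit gene on the other strand, which was not called (log2 change 0.35). MRPL1, of the movable stalk beside the tRNA exit, was at 8.50, 7.14 and 6.22 FPKM in control and at 6.02, 5.17 and 4.81 FPKM in shRNA libraries. Its lowest control library lay just above its highest shRNA library (log2 change -0.52 ± 0.16 SE, 1.43-fold lower, edgeR adjusted p = 0.0453). MRPL1 (ENSG00000169288) lies on the plus strand of chromosome 4 from 78783674 to 78873944.

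In the small subunit 3 genes were called lower. MRPS24, whose bacterial counterpart lines the channel where the message enters, was at 12.79, 12.17 and 14.94 FPKM in control and at 9.57, 9.43 and 9.82 FPKM in shRNA libraries. The shRNA values were tightly grouped below the controls (log2 change -0.54 ± 0.11 SE, 1.46-fold lower, edgeR adjusted p = 0.0131). MRPS24 (ENSG00000062582, chromosome 7, 43906157 to 43909492, minus strand) lies wholly within the readthrough gene URGCP-MRPS24 on the same strand, so its counts are uncertain.

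MRPS6 and MRPS18C belong to families whose bacterial members bind each other on the platform of the small subunit. MRPS6 was at 30.83, 26.46 and 30.11 FPKM in control and at 23.28, 23.41 and 22.47 FPKM in shRNA libraries. MRPS18C was at 5.07, 4.0 and 4.53 FPKM in control and at 2.60, 3.58 and 3.62 FPKM in shRNA libraries. In both genes the groups did not overlap. The log2 change was -0.41 ± 0.09 (SE) for MRPS6 (edgeR adjusted p = 0.0173). It was -0.55 ± 0.20 (SE) for MRPS18C (edgeR adjusted p = 0.037). MRPS6 (ENSG00000243927, chromosome 21, 35445524 to 35515334, plus strand) contains the untested SLC5A3 on the same strand. MRPS18C (ENSG00000163319, chromosome 4, 84377085 to 84390888, plus strand) overlaps the untested FAM175A on the other strand and starts 76 bases from HELQ, which was not called (log2 change -0.31).

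**Figure D3:**
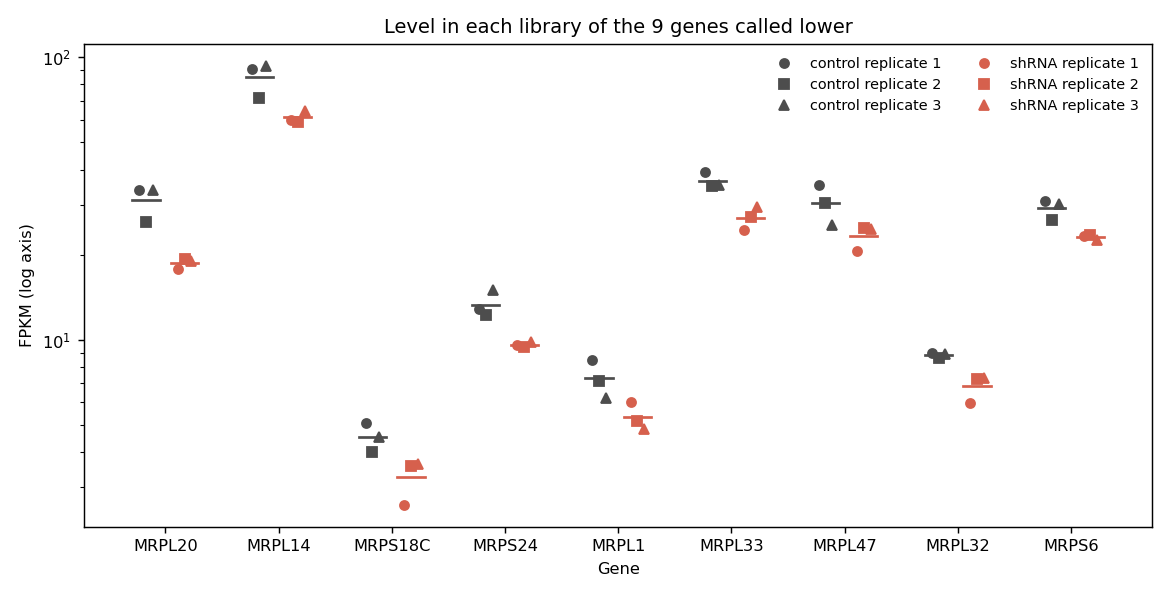
FPKM (y axis, log scale) in each of the 6 libraries of the 9 genes called lower; bars are group means and marker shapes are replicate numbers. The shRNA values of each gene lie below its control values, narrowly in MRPL1 (6.22 against 6.02 FPKM) and more widely in MRPL20 (26.12 against 19.28 FPKM).

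All 9 called genes overlapped another gene of the table, and none of the 30 tested members without an overlap was called. Of the 45 tested members with an overlap 9 were called lower. Over all tested genes, 12.8% of the 8501 with an overlap and 15.4% of the 4283 without one were called lower. The split among members depended on control libraries: without control replicate 2, 18 members with an overlap and 7 without one were lower, and without control replicate 3 MRPL50, which has no overlap, was lower. No source used here gives the strandedness of the libraries, so a gene and an overlapping one on the other strand cannot be told apart where they overlap. Of the 45 tested members that overlap no gene passing the expression minimum, 4 were called lower, or 8.89%. Over all tested genes, of any overlap, the share was 13.7%. No share over all tested genes is given here for that kind of overlap, and the difference was not tested.

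The 5' flanks of MRPL20, MRPL47, MRPS24 and MRPL33 are shown because a few short motifs recur in front of mitoribosomal protein genes. They are a part of the genes called lower, and each holds at least 1 of the motifs marked below. Windows from 250 bases before to 50 bases after the annotated start were taken from RefSeq (GRCh38.p14, a build whose coordinates differ from those of the authors' table), and 66 of the 75 tested members had one. Shown 5' to 3' are the MRPL20 window (chr1:1407244-1407543, minus strand), the MRPL47 window (chr3:179604589-179604888, minus strand), the MRPS24 window (chr7:43869468-43869767, minus strand) and the MRPL33 window (chr2:27771469-27771768, plus strand). Capitals mark the letters CCGGAAG, the core bound by ETS factors such as GABP, and AAGATGGC, the core bound by YY1, each on either strand.
MRPL20: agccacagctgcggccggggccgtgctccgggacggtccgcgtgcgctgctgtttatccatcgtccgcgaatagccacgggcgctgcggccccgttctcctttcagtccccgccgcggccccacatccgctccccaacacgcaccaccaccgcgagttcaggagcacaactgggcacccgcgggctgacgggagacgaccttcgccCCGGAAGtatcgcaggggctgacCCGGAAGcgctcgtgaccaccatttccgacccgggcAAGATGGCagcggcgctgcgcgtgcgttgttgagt
MRPL47: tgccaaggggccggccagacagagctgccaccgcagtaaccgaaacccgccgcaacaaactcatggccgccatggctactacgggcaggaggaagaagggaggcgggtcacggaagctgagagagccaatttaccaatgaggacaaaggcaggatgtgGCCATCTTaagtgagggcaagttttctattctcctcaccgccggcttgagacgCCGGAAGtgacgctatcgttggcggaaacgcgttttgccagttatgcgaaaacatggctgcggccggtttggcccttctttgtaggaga
MRPS24: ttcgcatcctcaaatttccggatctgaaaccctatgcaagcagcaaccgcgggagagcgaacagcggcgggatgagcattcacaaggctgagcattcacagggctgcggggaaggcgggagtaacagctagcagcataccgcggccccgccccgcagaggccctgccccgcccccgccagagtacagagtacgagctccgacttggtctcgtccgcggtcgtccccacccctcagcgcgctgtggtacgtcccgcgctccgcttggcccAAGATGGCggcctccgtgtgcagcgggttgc
MRPL33: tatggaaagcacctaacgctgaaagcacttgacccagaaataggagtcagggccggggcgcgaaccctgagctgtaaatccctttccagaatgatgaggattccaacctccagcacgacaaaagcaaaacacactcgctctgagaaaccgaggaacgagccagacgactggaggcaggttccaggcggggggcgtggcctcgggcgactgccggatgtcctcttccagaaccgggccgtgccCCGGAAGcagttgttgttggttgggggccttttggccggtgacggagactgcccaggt
MRPL20 held the ETS core at 2 places, beginning 44 and 21 bases before the start, and the YY1 core beginning at base 16 of the transcript. MRPL47 held the ETS core from 39 bases before the start and the YY1 core on the opposite strand from 92 bases before it. MRPS24 held the YY1 core from base 20 of the transcript and no ETS core, and MRPL33 held the ETS core from 8 bases before the start and no YY1 core. Of the genes called lower that are not shown, MRPL32 and MRPS18C held 1 of the cores and MRPL1, MRPL14 and MRPS6 neither.

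Across the 66 members with a window, 27 held the ETS core (40.9%), against 20.1% of the 8520 windows of tested genes and 10.7% of all 27305 windows. The YY1 core was present in 20 members (30.3%), against 5.85% of tested genes and 3.03% of all windows. Either core was found in 39 members (59.1%, against 24.5% of tested genes), both in 8, and in no member did they overlap each other. The consensus of nuclear respiratory factor 1 was present in 6 members (9.09%), against 12.5% of tested genes. CCAAT was present in 30.3% of members and 36.8% of tested genes, and the TATA box letters TATAAA in 3.03% and 5.04%. Each motif was searched on both strands. Of the 9 genes called lower, 6 held the ETS or the YY1 core, which describes the letters in these windows and no binding.

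**Figure D4:**
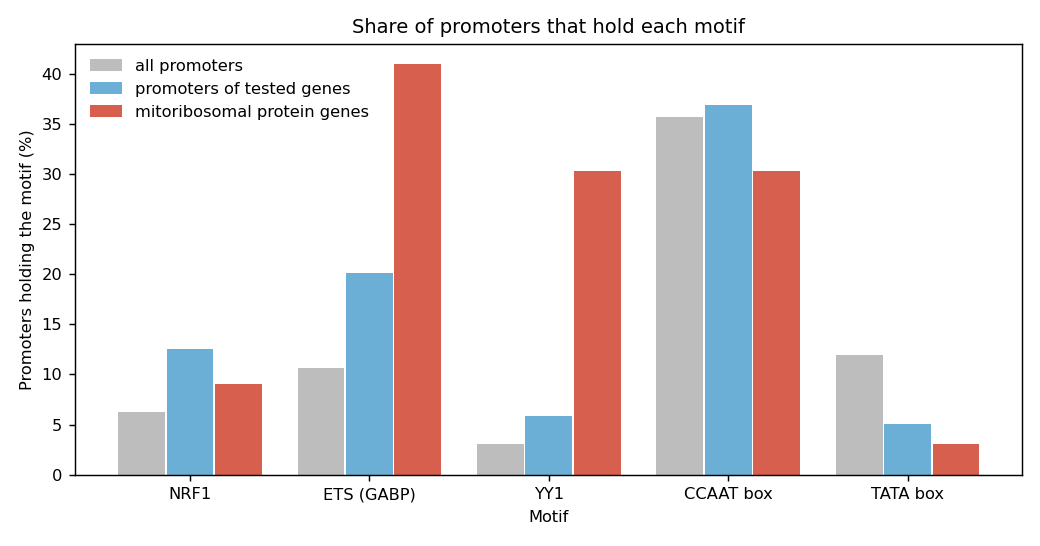
Share of promoter windows (y axis, percent) that hold each of 5 motifs (x axis), for all genes, for tested genes and for mitoribosomal protein genes. The ETS core was present in 40.9% and the YY1 core in 30.3% of the mitoribosomal protein genes, against 20.1% and 5.85% of tested genes.

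The genes of the factors that bind these motifs were among 14 genes of mitochondrial transcription and its regulators, of which 12 were tested. Of the 12, 1 was called lower and 1 higher, or 8.33% each, against 13.7% and 13.8% of all tested genes. NRF1 was at 6.87, 6.44 and 6.30 FPKM in control and at 7.08, 6.84 and 7.26 FPKM in shRNA libraries (log2 change 0.04, edgeR adjusted p = 0.852). YY1 had a log2 change of 0.16 (edgeR adjusted p = 0.289) and the GABP subunit gene GABPA one of 0.46 (edgeR adjusted p = 0.0988), and neither passed. The lower gene was MYC, which encodes a transcription factor of growth and ribosome synthesis. MYC was at 52.42, 48.87 and 55.80 FPKM in control and at 36.17, 39.20 and 45.30 FPKM in shRNA libraries, without overlap (log2 change -0.45, edgeR adjusted p = 0.0148). The higher gene was POLG, the polymerase of mitochondrial DNA (log2 change 0.33, edgeR adjusted p = 0.0405).

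By place in the ribosome, 6 of 48 tested large-subunit members and 3 of 26 small-subunit members were called lower, and none higher, with median log2 changes of -0.14 and -0.03. MRPS30 and MRPS18A, which are parts of the large subunit despite their names, were counted with it. MRPS36, now known as a component of the oxoglutarate dehydrogenase complex rather than of the ribosome, was counted with neither. MRPS36 was at 11.12, 9.80 and 8.82 FPKM in control and at 8.35, 9.09 and 10.69 FPKM in shRNA libraries, which overlapped (log2 change -0.15, edgeR adjusted p = 0.54). All 9 genes called lower were among the 47 tested members of families shared with bacteria (19.1%, against 13.7% of all tested genes), and none was among the 27 tested members specific to mitochondria. Without control replicate 2, 20 of the bacterial families and 5 of the mitochondria-specific members were lower (MRPL41, MRPL49, MRPL51, MRPL54 and MRPS26), and without control replicate 3 the mitochondria-specific MRPL50 was lower. The medians of these classes were -0.19 and -0.05, and the difference between the classes was not tested.

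Smaller sites of the ribosome were changed in few genes. In the stalk that recruits translation factors (MRPL10, MRPL11 and MRPL12) none of 3 genes was called. In the central protuberance none of 7 was called. At the exit of the peptide tunnel 1 of 6 was lower (MRPL47), and in the head of the small subunit 1 of 8 (MRPS24). Over all tested genes 13.7% were called lower, and counts over so few genes cannot set a site apart from that share.

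The most abundant members did not pass the test. MRPS34, a protein specific to mitochondria, had the highest mean level and was at 147.70, 121.11 and 155.58 FPKM in control and at 136.13, 130.77 and 143.43 FPKM in shRNA libraries. MRPS26 was at 119.70, 96.41 and 128.50 FPKM in control and at 98.24, 98.60 and 94.75 FPKM in shRNA libraries. MRPL12, a stalk protein that also binds the mitochondrial RNA polymerase, was at 115.06, 79.58 and 107.16 FPKM in control and at 81.98, 90.72 and 92.62 FPKM in shRNA libraries. In each of the 3 genes control replicate 2 was the lowest control and lay among or below the shRNA values. Without that library MRPS26 and MRPL12 were called lower (log2 changes -0.45 and -0.42, edgeR adjusted p = 0.00371 and 0.00678), where the analysis of all 6 libraries gave -0.32 and -0.26. The range of mean levels over the tested members ran from 3.18 FPKM (MRPL46) to 139.1 FPKM (MRPS34), with quartiles of 13.1 and 43.6 FPKM.

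At the other end of the order, 23 of the 75 members had a fitted change above 0 and none was called. Over all tested genes, 6245 of 12784 had a fitted change above 0 and 13.8% were called higher. Of the 23 members, the 5 genes with the highest log2 changes were chosen for naming after their values were seen. MRPS10, of the small-subunit head, was at 33.17, 34.07 and 23.86 FPKM in control and at 35.60, 44.02 and 49.18 FPKM in shRNA libraries (log2 change 0.43 ± 0.21 SE, edgeR adjusted p = 0.0574). MRPS30 was at 9.24, 8.98 and 8.92 FPKM in control and at 11.68, 10.88 and 12.64 FPKM in shRNA libraries (log2 change 0.30 ± 0.07 SE, edgeR adjusted p = 0.073). In both genes all shRNA libraries lay above all controls. MRPL3, a large-subunit protein of a bacterial family, and MRPS27 had log2 changes of 0.28 and 0.24, also without overlap of the groups. MRPL19 had a log2 change of 0.30, with shRNA values of 13.54, 16.03 and 18.48 FPKM within or above the controls at 13.63, 14.70 and 8.88 FPKM. Over the 17 alternatives MRPS10 was called higher in 9, MRPL3 in 6, MRPS27 in 5, MRPS30 in 4 and MRPL19 in 0. The share of all tested genes called higher ran from 7.02% to 19.9% in these alternatives.

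Counted by separation of the FPKM values alone, 10 of the 75 members had all shRNA libraries below all controls, or 13.3%, against 16.8% of all tested genes, and 12 had all of them above, or 16%, against 25.8%. The 10 were the 9 called genes and MRPL49, at 45.04, 44.64 and 46.92 FPKM in control and at 39.04, 40.66 and 39.71 FPKM in shRNA libraries (log2 change -0.27, edgeR adjusted p = 0.0716). FPKM is scaled to total counts and not by TMM, and scaling by total counts alone gave 5 members called lower and 4 higher, against backgrounds of 10.7% and 17.2%.

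**Figure D5:**
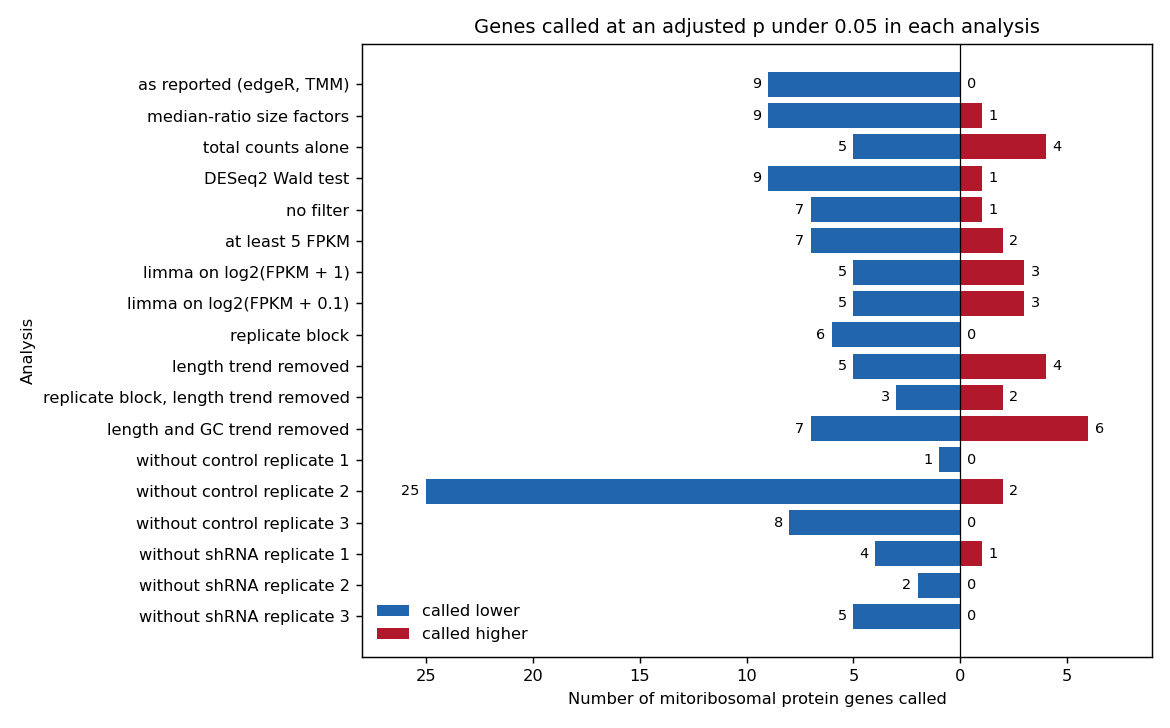
Number of mitoribosomal protein genes called lower (bars to the left) and higher (bars to the right) in each analysis (y axis). Lower calls run from 1 without control replicate 1 to 25 without control replicate 2, and higher calls from 0 to 6. Over all tested genes the share called lower ran from 6.97% to 19.8% and the share called higher from 7.02% to 19.9%.

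The 3 members below the expression minimum, also the 3 least abundant, were both entries of MRPL30 and 1 entry of MRPS17. MRPL30 (ENSG00000185414) had 4, 3 and 5 counts in control and 4, 4 and 5 counts in shRNA libraries. Its other entry, ENSG00000273155, had no count in any control and 4, 1 and 3 counts with the hairpin; a count of 0 allows up to 3 counts per library. The entries overlap each other by 14220 bases on the plus strand of chromosome 2, so reads of their shared part can be split or lost, and these counts are no measure of the MRPL30 level. MRPS17 was tested under ENSG00000239789 at 3.09 to 3.83 FPKM and had a single count over all libraries under ENSG00000249773. The tested entry overlaps GBAS over 4681 bases and the other MRPS17 entry over 3421 bases. Both overlaps are on the same strand, so its counts are uncertain.

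Several members share a start region with a gene on the other strand. A start within 1000 bases in the opposite direction, without overlap, was found for 22 members. For 16 members both genes were tested, with MRPS11 and MRPL46 each counted as the partner of the other. MRPS11 and MRPL46, which start 34 bases apart, are both members, and neither was called (log2 changes 0.08 and -0.09). MRPL36 starts 34 bases from the complex I gene NDUFS6, and neither was called (log2 changes -0.12 and -0.25). MRPL52 starts 59 bases from the amino acid transporter gene SLC7A7, which was called lower (log2 change -1.23) while MRPL52 was not (-0.13). MRPL10 starts 93 bases from LRRC46, which was called higher (log2 change 0.76) while MRPL10 was not (0.06). MRPL11 starts 7 bases from PELI3, which was called lower (log2 change -0.53) while MRPL11 was not (-0.27). No other tested partner was called. Of the 16 partners 2 were thus lower and 1 higher, against 13.7% and 13.8% of all tested genes. The difference within a pair was not tested.

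Other parts of the mitochondrial translation system were counted in the same way. None of the 7 mitoribosomal proteins with other symbols was called, among them DAP3 (20.68, 20.00 and 20.52 FPKM in control and 21.67, 23.33 and 25.76 FPKM in shRNA libraries) and GADD45GIP1, at 162 to 210 FPKM. Of the mitochondrial RNAs, the ribosomal RNA gene MT-RNR1 was at 957.76, 910.34 and 875.64 FPKM in control and at 773.32, 759.98 and 954.94 FPKM in shRNA libraries. These values overlapped, as did those of MT-RNR2, at 3828 to 4515 FPKM in control and 4190 to 4958 FPKM in shRNA libraries. By edgeR the adjusted p was 0.176 for MT-RNR1 and 0.813 for MT-RNR2. Of the 15 mitochondrial RNA genes 3 were called lower (MT-ND3, MT-CO2 and MT-ND6, with log2 changes of -0.39, -0.36 and -0.48) and 1 higher (MT-ND4L, 0.90, which overlaps MT-ND4). These were 20% and 6.67%, against 13.7% and 13.8% of all tested genes.

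Among 15 translation factors and partners of the mitochondrial ribosome 2 were called higher and none lower. The 13.3% called higher lay near the 13.8% of all tested genes, of which 13.7% were called lower. MRRF, which recycles the ribosome after termination, was at 13.25, 11.70 and 13.02 FPKM in control and at 16.39, 18.16 and 19.20 FPKM in shRNA libraries (log2 change 0.43, edgeR adjusted p = 0.0275). The release factor MTRF1L was at 6.55, 8.33 and 5.13 FPKM in control and at 8.91, 10.85 and 11.63 FPKM in shRNA libraries (log2 change 0.58, edgeR adjusted p = 0.0242). Both genes lay higher in every shRNA library than in any control. The elongation factor TUFM was at 121 to 148 FPKM in control and 139 to 145 FPKM in shRNA libraries and was not called.

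Of 26 assembly and rRNA maturation genes 25 were tested, with 1 called lower and 2 higher. These were 4% and 8%, against 13.7% and 13.8% of all tested genes. By separation of the FPKM values alone, 1 of the 25 had all shRNA libraries below all controls and 10 had all of them above. Over all tested genes 16.8% and 25.8% did so, and the difference from these shares was not tested. MTERFD1, also known as MTERF3, which represses mitochondrial transcription and takes part in large-subunit assembly in mouse, was at 20.95, 18.27 and 15.89 FPKM in control and at 11.31, 10.37 and 12.83 FPKM in shRNA libraries (log2 change -0.74, edgeR adjusted p = 0.00367). NGRN, which takes part in assembly around the large ribosomal RNA, was at 12.63, 15.40 and 14.04 FPKM in control and at 20.91, 23.57 and 24.55 FPKM in shRNA libraries (log2 change 0.64, edgeR adjusted p = 0.00279). Neither gene's groups overlapped. The rRNA methyltransferase NSUN4 had a log2 change of 0.38 (edgeR adjusted p = 0.0407).

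Cytosolic ribosomal protein genes, taken as 77 symbols with the most abundant entry of each, are set beside them for scale. Of these 51 were called lower, or 66.2%, and none was higher, against 13.7% and 13.8% of all tested genes. Their median log2 change was -0.38. These values stand against 12% and -0.12 for the mitoribosomal protein genes. Processed pseudogenes of the cytosolic genes are numerous and may take some of their reads, and the difference between the groups of genes was not tested. Log2 change rose with length over all tested genes (Spearman's rho 0.25). No value with that trend removed is given here for the cytosolic genes.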

How the data were processed

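RNA was sequenced from 3 control and 3 CPT1A shRNA libraries of SKOV3. The authors deposited for each gene a whole-number read count and an FPKM value; the submitters' processing notes list HTSeq 0.6.1, HISAT2 2.0.1, DESeq2 and cutadapt 1.9.1, with no roles given, and a mouse build that cannot belong to a table of human Ensembl identifiers. The deposited FPKM values equal the count divided by exonic length and by the library's total, in the usual FPKM scaling, in 100.0% of entries within 0.0051. Libraries of a group differed by more than counting error (chi-square per degree of freedom 6.20 to 34.6).

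A minimum of 1 FPKM in 3 or more libraries left 12784 genes, whose raw counts were tested in edgeR 4.0.16 under R 4.3.3 (TMM scaling, quasi-likelihood F test, Benjamini-Hochberg adjustment over all genes tested). Each standard error is for the control-to-shRNA difference in mean log2 CPM (prior count 2). Alternatives used DESeq2 1.42.0 and limma 3.58.1. The procedure was tested on simulated data. The members and lists were chosen with earlier results of these data known. Named members were all those called (at most 12 lower and 8 higher), the 3 most and 3 least abundant, those below the minimum, and up to 4 called genes per list; the 5 members with the highest change, MRPL49, and other genes that were not called were added after their values were seen. Of the lists of markers, all 5 fibroblast, 3 of 4 endothelial and all 5 immune genes were matched.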

Additional observations from a re-analysis of the deposited data

How the results depend on the processing

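The lower calls among mitoribosomal protein genes numbered 9 in the analysis reported, and 9 with median-ratio size factors or with DESeq2. Over all tested genes the shares were 13.7%, 13.5% and 14.4%. The members' lower calls numbered 7 without a filter on low values, with a minimum of 5 FPKM, and with length and GC trends removed. The last was chosen after seeing the data. These 7 were of 78, 72 and 75 members, against 6.97%, 16.7% and 19.8% of all tested genes. Lower calls fell to 5 with total counts alone, with limma on log2(FPKM + 1) or log2(FPKM + 0.1), and with the length trend removed. Here the shares of all tested genes were 10.7%, 10.5%, 10.1% and 13.5%. Leaving out 1 library at a time gave 1 to 25 lower calls, 0 to 2 higher calls and a median log2 change of -0.19 to -0.05. The shares of all tested genes then ran from 7.15% to 19.6% lower and from 7.57% to 19.9% higher. Higher calls, 0 as reported, numbered 1 with median-ratio size factors, DESeq2 or no filter, 2 with a minimum of 5 FPKM, 3 with limma at either pseudocount, 4 with total counts alone or the length trend removed, and 6 with length and GC trends removed. In these analyses the share of all tested genes called higher ran from 7.02% without a filter to 19.1% with length and GC trends removed. The median log2 change of -0.12 became 0.0163 with the length trend removed and 0.0264 with length and GC trends removed. The cause was not tested.

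The labels do not say whether replicate numbers pair the samples, and no sign of pairing was seen. Same-numbered libraries had correlations of deviations of -0.07, 0.01 and -0.25, and not every library correlated best with its own number. With 3 libraries per group these correlations cannot settle whether the samples were paired. The replicate block gave 6 lower and 0 higher calls, against 12.5% and 13.0% of all tested genes, with a median of -0.11. With the length trend removed as well, the replicate block gave 3 lower and 2 higher calls with a median of 0.0146. In that analysis 11.6% of all tested genes were called in each direction. Among single genes, MRPS34 turned to 0.0697 with the length trend removed, to 0.0729 with the block as well and to 0.1864 with length and GC trends removed, where MRPL12 turned to 0.0635. CPT1A kept its call in all 17 alternatives, and MRPL20 did too. The calls of MRPL1, MRPL47 and MRPL32 were lost in 12, 12 and 13 of 17 alternatives, those of MRPS18C in 7 of 16, MRPL33 in 5, MRPS24 and MRPS6 in 3 each and MRPL14 in 2 of 17. The spread between 3 libraries limits which small changes can be called.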
